A study of Rattus norvegicus with 2 samples.

Results

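S1pr1 and S1pr5 encode receptors for sphingosine-1-phosphate, and Klf2, Lef1 and Tcf7 encode transcription factors. The 5 genes were grouped under lymphocyte quiescence and egress, although S1pr5 was highest outside the lymphocytes. They were followed here through the immune cells of the infarcted rat heart. They were chosen by symbol, and all 5 were found, each on 1 line, among the 26976 symbols of the matrix. CD45+ cells had been sorted from left ventricles of wild-type (wt) rats 7 days after surgery, and their transcripts were captured with the 10x Genomics Chromium 3′ v2 kit, which tags each molecule with a cell barcode and a unique molecular identifier (UMI). The labels give 1 sample of the treatment MI, a myocardial infarction, and 1 of MI+PUR-hAESC, an infarction covered by a polyurethane patch that carries human amniotic epithelial stem cells. Strain, sex, age and the number of rats behind each sample are not stated in the labels used here, and cells outside the CD45 gate were not profiled. The matrix pools both samples into barcode suffixes 1 and 2, called library 1 and library 2. Neither the labels nor the files say which suffix is which treatment, so a difference between the libraries is not read as an effect of the patch. With 1 library on each side no test was possible, and intervals cover counting error only.

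Sphingosine-1-phosphate is a lipid that is abundant in blood and lymph and scarce inside tissues. Lymphocytes that carry S1PR1 follow it out of lymphoid organs, and S1PR5 serves the same purpose in natural killer cells and patrolling monocytes of mice. KLF2 is a zinc finger factor that keeps mouse T cells resting and switches on S1pr1, while CD69 pulls S1PR1 protein off the cell surface. LEF1 and TCF1 (the product of Tcf7) are related factors that bind the same DNA motif, work with beta-catenin in Wnt signalling, drive early T cell development in the thymus and stay on in naive T cells.

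The promoter windows of 4 of the 5 genes were in the RefSeq table for the rat build GRCr8, each running from 250 bases before to 50 bases after the gene's start. They are shown because S1pr1, Lef1 and Tcf7 were high in the same resting T cells while S1pr5 was not. Klf2 had no entry. Capitals mark 4 motifs, searched on both strands: the KLF motif CCACCC, the TCF/LEF motif CTTTGA, the T-box motif TCACAC and the GC box GGGCGG. No motif overlapped another in these windows.
S1pr1, chr2:206314021-206314320, minus strand: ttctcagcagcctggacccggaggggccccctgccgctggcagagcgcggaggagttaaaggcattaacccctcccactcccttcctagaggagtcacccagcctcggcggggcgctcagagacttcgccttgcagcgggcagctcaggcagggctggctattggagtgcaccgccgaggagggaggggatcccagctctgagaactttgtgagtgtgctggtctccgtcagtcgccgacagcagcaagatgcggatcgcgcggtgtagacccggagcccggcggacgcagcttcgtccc
S1pr5, chr8:28067820-28068119, minus strand: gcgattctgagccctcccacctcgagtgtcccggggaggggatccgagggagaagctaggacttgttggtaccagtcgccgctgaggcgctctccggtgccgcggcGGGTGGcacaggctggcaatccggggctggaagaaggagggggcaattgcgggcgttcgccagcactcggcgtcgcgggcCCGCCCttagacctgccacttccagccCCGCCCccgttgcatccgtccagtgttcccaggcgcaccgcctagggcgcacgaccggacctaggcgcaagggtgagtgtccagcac
Lef1, chr2:222340463-222340762, plus strand: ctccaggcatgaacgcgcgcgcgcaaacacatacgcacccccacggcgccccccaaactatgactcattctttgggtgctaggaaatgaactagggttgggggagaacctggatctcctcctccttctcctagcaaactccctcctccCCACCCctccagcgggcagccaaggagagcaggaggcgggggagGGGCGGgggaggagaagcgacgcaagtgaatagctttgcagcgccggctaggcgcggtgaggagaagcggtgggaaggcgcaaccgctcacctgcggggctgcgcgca
Tcf7, chr10:36954230-36954529, minus strand: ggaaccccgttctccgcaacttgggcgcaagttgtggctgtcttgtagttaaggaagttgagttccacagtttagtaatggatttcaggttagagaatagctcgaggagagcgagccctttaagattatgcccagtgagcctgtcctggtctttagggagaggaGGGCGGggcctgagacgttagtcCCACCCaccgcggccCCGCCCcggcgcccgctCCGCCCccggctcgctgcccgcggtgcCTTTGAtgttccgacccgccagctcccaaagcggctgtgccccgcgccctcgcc

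The KLF motif matched 1 time each in the windows of S1pr5, Lef1 and Tcf7 and not in that of S1pr1. Of the 33469 promoter windows in the table, 29.4% held it. The TCF/LEF motif, which 16.1% of windows held, matched 1 time, in Tcf7, where it runs across the gene's start. GC boxes, found in 33.1% of windows, matched 2 times in S1pr5, 1 time in Lef1 and 3 times in Tcf7. The T-box motif, found in 13.7% of windows, matched in none of the 4. A match is a description of the letters, and no binding was measured in this study.

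The libraries held 14283 and 15666 barcodes, with a median of 3692 and 4367.5 UMIs, and 27768 cells were kept. In all, 71 barcodes occurred in both libraries. Cells were clustered without the 5 genes and named from marker lists, so each class name means cells that resemble that type. There were 493 and 1058 naive-like T cells in libraries 1 and 2, 939 and 1367 effector-like T cells, 158 and 387 dividing T cells, 1205 and 1701 natural killer-like cells and 849 and 1841 B-like cells. Non-classical monocyte-like cells, here called Adgre4-positive monocytes, numbered 426 and 960. Cells that express Rag1, the recombinase gene of developing lymphocytes, were nearly confined to library 2, with 865 resting and 121 dividing cells against 1 resting cell in library 1. Each level below is in CPM, the UMIs of a gene in all cells of a class scaled by the class total, with an exact 95% Poisson interval.

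**Figure D1:**
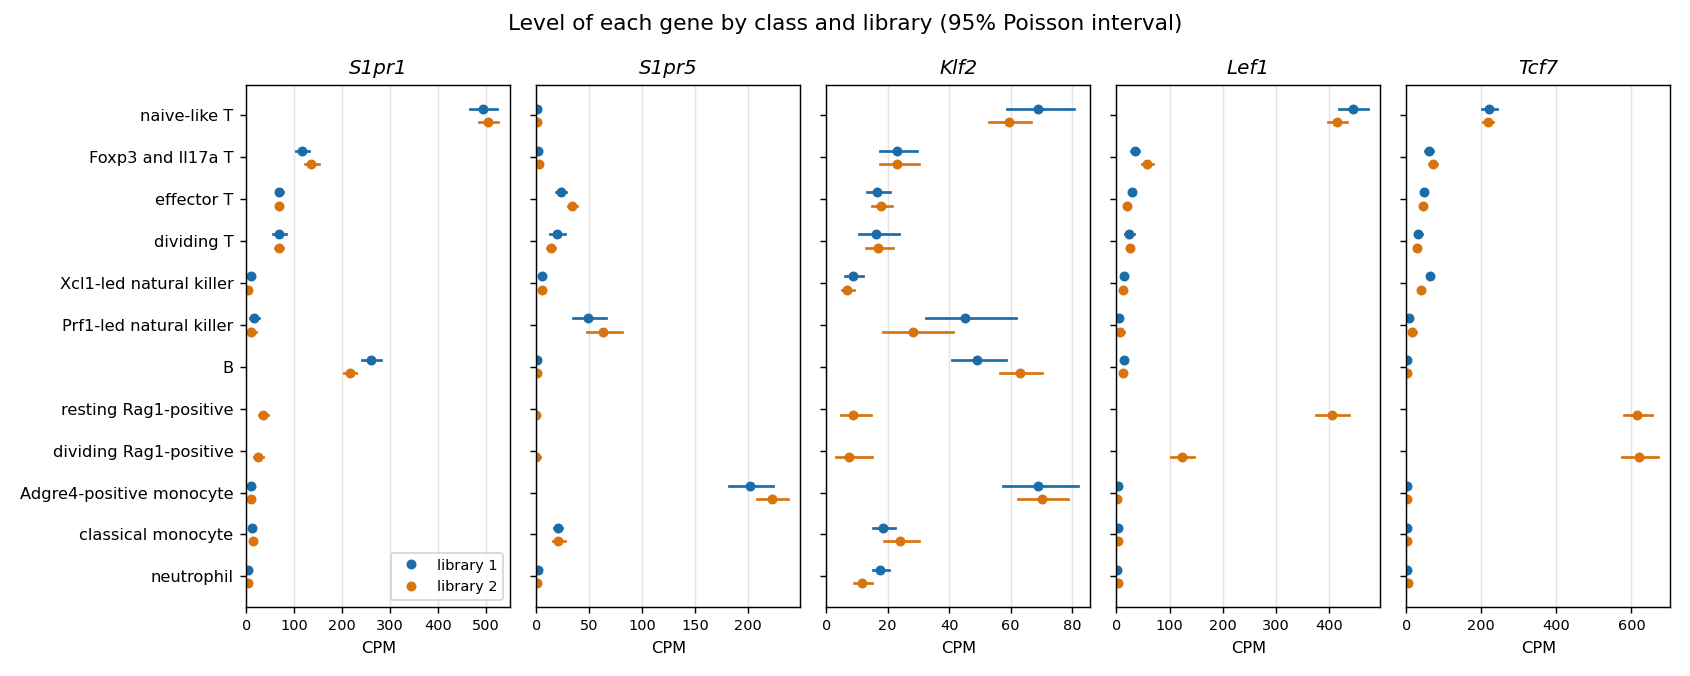
Level of each of the 5 genes in CPM (horizontal axes, one scale per gene) in 12 classes of cells (vertical axis), with library 1 in blue, library 2 in orange and bars for the 95% Poisson interval. S1pr1 and Lef1 peak in naive-like T cells, S1pr5 in Adgre4-positive monocytes and Tcf7 in the 2 Rag1-positive classes, which only library 2 fills.

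S1pr1, the receptor that T and B cells need to leave lymphoid organs, was highest in naive-like T cells, at 495 CPM (467 to 524) and 505 CPM (486 to 525) in libraries 1 and 2, the order kept below. B-like cells followed among lymphocytes, at 261 CPM (241 to 281) and 217 CPM (205 to 230). Endothelial-like cells, of which 124 and 42 were caught behind the CD45 gate, held 284 CPM (257 to 314) and 263 CPM (219 to 313), which overlapped the B-like intervals. S1pr1 is also a classical receptor of blood vessel walls. The 8 measured endothelial markers summed to 13.3 CPM and 10.4 CPM in naive-like T cells, below the S1pr1 level there. The part of endothelial RNA in that level was not tested. Effector-like T cells stood at 68.8 CPM (61.5 to 76.8) and 68.3 CPM (62.4 to 74.7), and dividing T cells at 68.1 CPM (55.9 to 82.2) and 68.8 CPM (60.7 to 77.8). These intervals overlapped in both libraries, so dividing and effector-like T cells were not told apart by S1pr1. The merged class of T cells with regulatory and type 17 markers (Foxp3 and Il17a) lay between, at 116 CPM (103 to 130) and 136 CPM (122 to 152). Resting Rag1-positive cells held 35.6 CPM (27.2 to 45.7) in library 2, natural killer-like cells 10.7 CPM (8.17 to 13.8) and 5.02 CPM (3.62 to 6.79), and Adgre4-positive monocytes 10.8 CPM (6.58 to 16.6) and 10.2 CPM (7.36 to 13.7). The floor was set by neutrophil-like cells, which held 2.89 CPM and 3.66 CPM.

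On the scale of log2(CPM + 10), S1pr1 was higher in naive-like than in effector-like T cells by 2.68 (95% counting interval 2.52 to 2.84) in library 1 and by 2.72 (2.59 to 2.84) in library 2. A gene with at least 20 CPM in either class counts as called here when it differs by 2-fold or more with Poisson intervals apart. In this comparison 12.3% of tested genes were called in each library, 3.2% higher and 9.07% lower in library 1 and 2.9% and 9.35% in library 2. All 5 genes were called, with 4 higher and S1pr5 lower in naive-like cells. B-like cells were below naive-like cells by −0.90 (−1.03 to −0.77) and −1.18 (−1.28 to −1.08), past 2-fold in library 2 alone. That comparison called 16.9% and 17.1% of genes, 12.1% and 12.6% higher and 4.81% and 4.55% lower. Resting Rag1-positive cells were lower than naive-like T cells by −3.50 (−3.79 to −3.21) in library 2, where 19.4% of genes were called, 14.9% higher and 4.45% lower. Natural killer-like cells lay below effector-like T cells by −1.93 and −2.38, a comparison in which 8.04% and 8.3% of genes were called, 5.36% and 5.45% higher and 2.69% and 2.84% lower, and S1pr1 was called in both libraries. S1pr5 in library 2 fell just short, at −0.99, and with a pseudocount of 1 CPM it differed by −1.42 and Lef1 in library 1 by −1.07. With the Klra22-led cells described below in the natural killer-like class, as at finer clustering, the difference was −1.25 and −1.41.

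Within naive-like T cells, S1pr1 was compared by co-receptor. Most cells, 57.8% and 57.1%, had a UMI of neither and held 532 CPM (493 to 574) and 527 CPM (499 to 555). Cells with Cd4 and no Cd8 UMI, 96 and 213 in number, held 511 CPM (450 to 579) and 529 CPM (485 to 575). Cells with Cd8 and no Cd4 UMI, 105 and 227, held 404 CPM (353 to 461) and 427 CPM (392 to 464). The intervals were apart in library 2 and overlapped slightly in library 1. Lef1 did not separate the same cells, at 431 CPM and 383 CPM in the Cd4 cells against 426 CPM and 393 CPM in the Cd8 cells. Effector-like T cells were 93.7% and 95.9% Cd8-only, and those cells held 67.7 CPM and 66.4 CPM of S1pr1, so naive-like cells were also above effector-like cells when Cd8-only cells alone were compared.

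Shares of cells were compared across depths after a random draw of 1500 UMIs from every cell that had as many, which left 491 and 1046 naive-like, 932 and 1348 effector-like, 823 and 1784 B-like and 3964 and 1639 neutrophil-like cells. S1pr1 then had a UMI in 49.3% (exact binomial interval 44.8 to 53.8) and 48.9% (45.9 to 52.0) of naive-like T cells, and in 79.7% and 81.3% before thinning. B-like cells had one in 30.5% (27.4 to 33.8) and 25.1% (23.1 to 27.2), and effector-like T cells in 8.26% (6.57 to 10.2) and 9.20% (7.71 to 10.9). Neutrophil-like cells, which should lack the gene, gave 0.328% and 0.305%. Their median depth was 2214 and 2527 UMIs, against 4535 and 4588 in naive-like T cells. Natural killer-like cells, at 1.10% (0.589 to 1.88) and 0.481% (0.208 to 0.946), were above that background in library 1 and overlapped it in library 2.

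**Figure D2:**
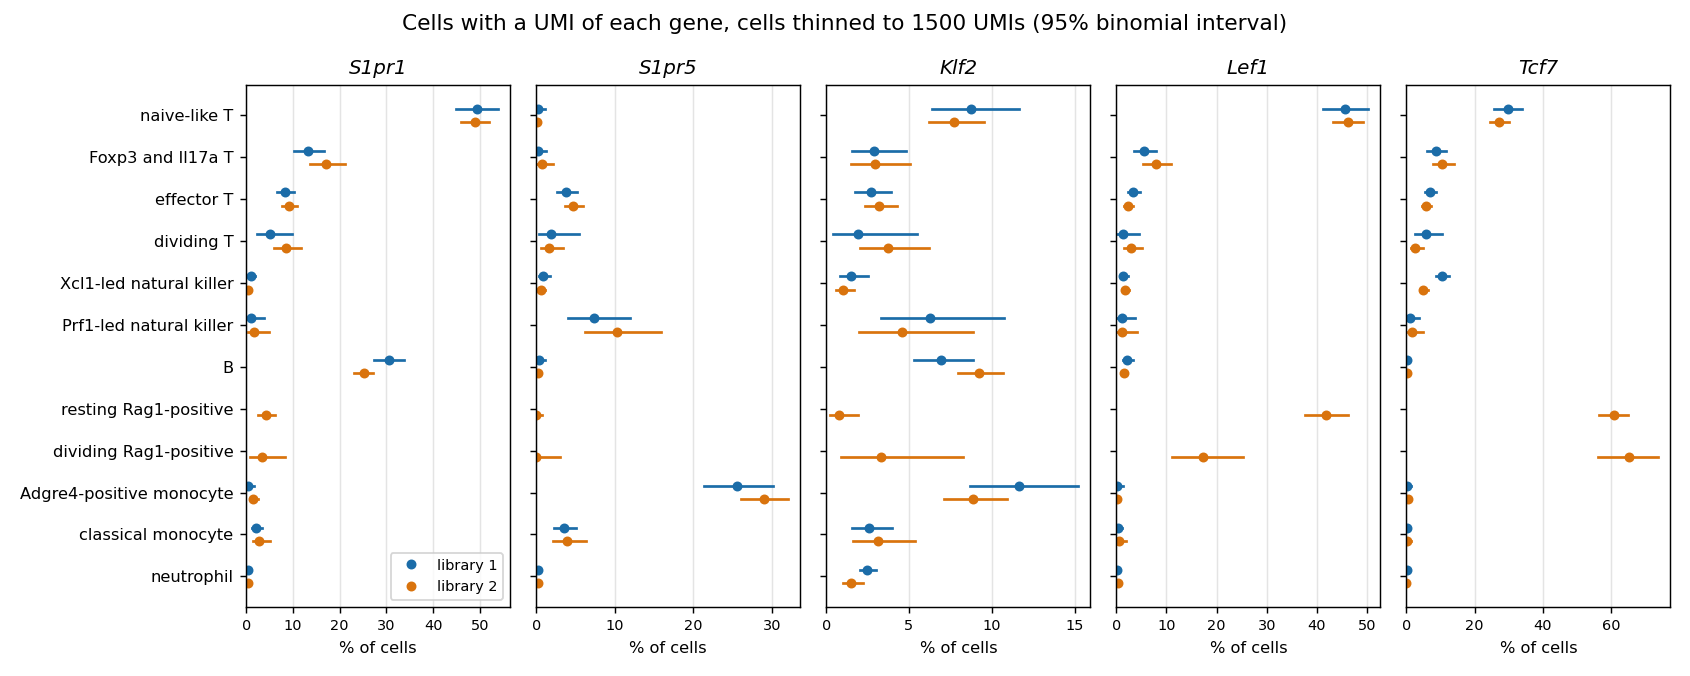
Percent of cells with at least 1 UMI of each gene after thinning every cell to 1500 UMIs (horizontal axes) by class (vertical axis), with library 1 in blue, library 2 in orange and bars for the exact 95% binomial interval. Naive-like T cells reach 49.3% and 48.9% for S1pr1, while neutrophil-like cells, the background, lie at 0.328% and 0.305%.

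S1pr5, the receptor tied to natural killer cell and patrolling monocyte exit, had its highest level outside the lymphocytes. Adgre4-positive monocytes held 202 CPM (182 to 224) and 223 CPM (209 to 238), and classical monocyte-like cells 20.3 CPM (16.9 to 24.2) and 21.0 CPM (16.2 to 26.8). The difference was 2.81 (2.59 to 3.03) and 2.91 (2.66 to 3.16) on the log2 scale, in a comparison that called 17.3% and 14.3% of genes, 9.77% and 7.51% higher and 7.55% and 6.76% lower. After thinning, 25.6% (21.4 to 30.1) and 29.0% (26.1 to 32.0) of Adgre4-positive monocytes had a UMI, against 0.202% and 0.183% of neutrophil-like cells. S1pr4, a receptor of the same family found on many blood cells, rose alongside, from 19.8 CPM and 32.7 CPM in classical monocyte-like cells to 155 CPM and 192 CPM.

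Among lymphocytes S1pr5 was a gene of a few cells. Effector-like T cells held 23.2 CPM (19.0 to 28.0) and 33.9 CPM (29.7 to 38.5), dividing T cells 19.4 CPM (13.2 to 27.5) and 13.6 CPM (10.1 to 17.8), and natural killer-like cells 12.6 CPM (9.77 to 15.9) and 12.1 CPM (9.84 to 14.7). Naive-like T cells gave 1 UMI in 493 cells and 3 UMIs in 1058 cells, and B-like cells 3 and 6 UMIs. Their levels of 0.428 to 1.17 CPM had intervals that overlapped those of neutrophil-like cells, at 1.39 CPM (0.762 to 2.34) and 1.04 CPM (0.383 to 2.27). In resting and dividing Rag1-positive cells no UMI was found, and a count of 0, read as a limit of 3 counts, allows up to 0.568% of the 528 thinned resting cells to carry one. Naive-like T cells were below effector-like T cells by −1.67 (−1.89 to −1.45) and −2.05 (−2.22 to −1.88) on the log2 scale.

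Both effector-like T cells and natural killer-like cells split by S1pr5. Natural killer-like cells fell into 1014 and 1526 cells led by Xcl1, a chemokine gene, and 191 and 175 cells led by Prf1, the perforin gene. S1pr5 stood at 5.64 CPM (3.68 to 8.26) and 5.78 CPM (4.18 to 7.78) in the Xcl1-led cells and at 48.7 CPM (35.2 to 65.6) and 63.0 CPM (47.9 to 81.5) in the Prf1-led cells. The difference was 1.91 (1.5 to 2.32) and 2.21 (1.85 to 2.57), and 5.8% and 6.28% of genes were called in that comparison, 2.44% and 2.39% higher and 3.36% and 3.9% lower. At finer clustering, effector-like T cells separated into 201 and 447 cells led by Gzmbl3, Ccl5 and Gzmk, with Gzma and Klrg1 also leading, and 733 and 911 other cells. The granzyme-led cells held 82.7 CPM (66.6 to 102) and 78.9 CPM (68.3 to 90.6) of S1pr5 and the others 4.59 CPM (2.62 to 7.46) and 9.10 CPM (6.53 to 12.3). These splits were drawn after the clusters had been seen, without any of the 5 genes among the clustering genes.

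Klrg1 and Gzma are among the leading genes of these clusters, so a split of single cells by them restates the cluster difference and is given as a description. Of effector-like T cells with a UMI of Klrg1, a receptor of late effector cells, 23.5% (10.7 to 41.2) and 12.7% (6.96 to 20.8) had an S1pr5 UMI, against 3.01% (1.99 to 4.34) and 4.09% (3.06 to 5.35) of those without. With Gzma, a granzyme gene, the shares were 9.27% (6.03 to 13.5) against 1.63% (0.819 to 2.91) in library 1 and 7.59% (5.14 to 10.7) against 3.62% (2.54 to 5.0) in library 2. In natural killer-like cells Gzma gave 4.96% (2.67 to 8.34) against 1.09% (0.525 to 2.0) and 5.71% (3.47 to 8.77) against 0.602% (0.260 to 1.18). The intervals of each of these pairs were apart. Effector-like T cells with a Cd69 UMI held S1pr5 less often in library 1, at 1.35% (0.368 to 3.41) against 4.88% (3.34 to 6.86), with intervals that just overlapped, and at 3.65% (2.21 to 5.65) against 5.43% (3.99 to 7.20) in library 2.

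**Figure D3:**
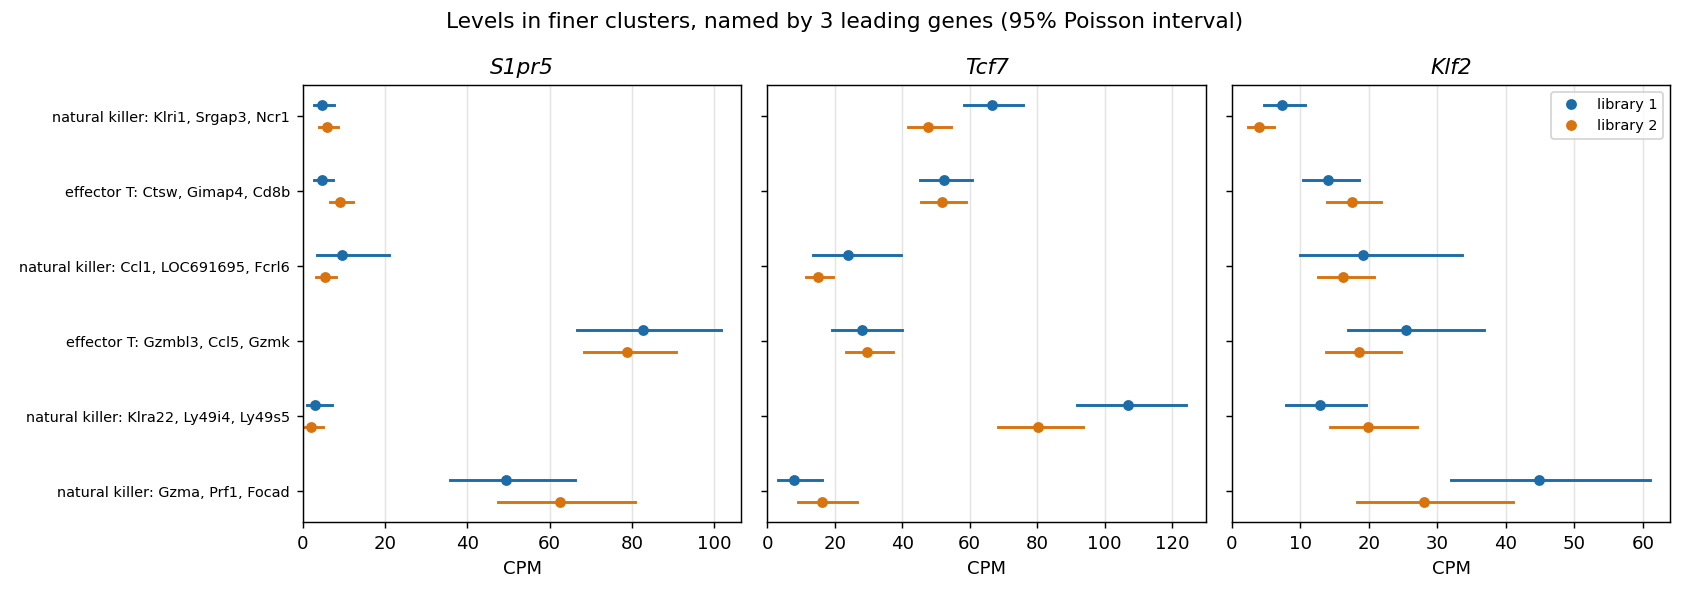
Level in CPM (horizontal axes) of S1pr5, Tcf7 and Klf2 in the finer clusters of effector-like T cells and natural killer-like cells, each named by 3 leading genes (vertical axis), with library 1 in blue, library 2 in orange and bars for the 95% Poisson interval. S1pr5 is high in the granzyme-led T cells (82.7 and 78.9 CPM) and in the Prf1-led natural killer-like cells (49.4 and 62.5 CPM), whose Tcf7 is low (7.85 and 16.2 CPM). Tcf7 is also low in the Ccl1-led natural killer-like cells (24.0 and 15 CPM).

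Klf2, the quiescence factor upstream of S1pr1 in mice, was spread over more classes than the receptors. Naive-like T cells held 69.0 CPM (58.7 to 80.5) and 59.6 CPM (53.0 to 66.8), Adgre4-positive monocytes 69.0 CPM (57.6 to 82.0) and 70.2 CPM (62.5 to 78.7) and B-like cells 49.2 CPM (41.0 to 58.6) and 63.1 CPM (56.6 to 70.2). In library 2 these classes were not told apart, since neighbouring intervals overlapped. Endothelial-like cells stood at 89.8 CPM in both libraries, with intervals of 74.9 to 107 and 65.0 to 121. Effector-like T cells, at 16.7 CPM (13.2 to 20.8) and 17.9 CPM (14.9 to 21.3), dividing T cells, at 16.2 CPM (10.6 to 23.8) and 17 CPM (13.1 to 21.7), and neutrophil-like cells, at 17.6 CPM (15.1 to 20.4) and 11.7 CPM (9.04 to 14.8), were low. Resting Rag1-positive cells held 8.75 CPM (4.90 to 14.4). Effector-like T cells overlapped the neutrophil-like interval in library 1 and lay just above it in library 2, and the share of thinned cells with a UMI was 2.68% and 3.19% in effector-like T cells, against 2.47% and 1.53% in neutrophil-like cells.

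Naive-like T cells were above effector-like T cells in Klf2 by 1.57 (1.29 to 1.85) and 1.32 (1.10 to 1.53) on the log2 scale. Adgre4-positive monocytes were above classical monocyte-like cells by 1.47 (1.19 to 1.75) and 1.24 (0.97 to 1.51), the latter 0.70 and no longer 2-fold when called doublets were kept. Prf1-led natural killer-like cells, at 45.3 CPM (32.3 to 61.6) and 28.3 CPM (18.5 to 41.4), were above Xcl1-led ones, at 8.67 CPM (6.20 to 11.8) and 6.85 CPM (5.10 to 9.01), by 1.57 (1.14 to 1.99) and 1.18 (0.74 to 1.62). In both of these pairs the class richer in S1pr5 was richer in Klf2. This did not hold for all finer clusters of natural killer-like cells. In library 2 a Ccl1-led cluster held 16.3 CPM (12.5 to 20.8) of Klf2, against 3.91 CPM (2.32 to 6.18) in a Klri1-led cluster. Their S1pr5 levels overlapped, at 5.34 CPM (3.31 to 8.17) and 5.86 CPM (3.86 to 8.53). In library 1 their Klf2 intervals overlapped. In effector-like T cells Klf2 did not separate the granzyme-led cells, at 25.5 CPM (16.9 to 36.8) and 18.6 CPM (13.7 to 24.8), from the others, at 14.1 CPM (10.4 to 18.6) and 17.5 CPM (13.9 to 21.8). S1pr1 stayed low in both kinds of natural killer-like cells, at 15.8 CPM (8.66 to 26.6) and 10.9 CPM (5.21 to 20) in Prf1-led against 9.76 CPM (7.12 to 13.1) and 4.30 CPM (2.94 to 6.07) in Xcl1-led cells, with overlapping intervals. The highest Klf2 level among the classes measured was in an unnamed cluster of 272 and 266 shallow cells led by Cideb, at 206 CPM (166 to 252) and 181 CPM (144 to 226). Its cells had a median mitochondrial share of 11.8% and 11.2%, against 4.62% and 4.17% in naive-like T cells. The 12 macrophage markers summed to 27649 CPM and 19286 CPM in it, against 58548 CPM and 39615 CPM in macrophage-like cells. The part of RNA quality and of macrophage RNA in that level was not tested.

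Immediate early genes, which respond to enzymatic digestion and other stimuli within minutes, were measured beside Klf2. Naive-like T cells were called lower than effector-like T cells in 5 of 14 immediate early genes above the minimum in library 1 and 7 of 13 in library 2, where 9.07% and 9.35% of all tested genes were lower. Fosb stood at 1017 CPM and 1092 CPM in effector-like cells and at 338 CPM and 336 CPM, in naive-like cells, and Nr4a1 at 210 CPM and 338 CPM against 33.4 CPM and 46.4 CPM. In B-like cells, whose Klf2 differed from that of naive-like T cells by −0.42 and 0.07, 4 of 12 and 7 of 13 were called higher than in naive-like T cells and none lower, against 12.1% and 12.6% higher over all tested genes. The part of the immediate early response in the Klf2 levels was not tested.

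Lef1, a factor of thymocytes and naive T cells, reached 445 CPM (418 to 472) and 415 CPM (397 to 433) in naive-like T cells and 406 CPM (376 to 437) in resting Rag1-positive cells of library 2. The difference between these in library 2 was −0.03 (−0.15 to 0.09) on the log2 scale, without the TMM scaling described below. Dividing Rag1-positive cells held 123 CPM (103 to 146), lower than resting ones by −1.65 (−1.90 to −1.39), a comparison that called 15.9% of genes, 9.05% higher and 6.81% lower. Effector-like T cells were at 29.4 CPM (24.7 to 34.8) and 19.3 CPM (16.2 to 22.9), dividing T cells at 24.4 CPM (17.3 to 33.3) and 26.6 CPM (21.6 to 32.3), and B-like cells at 14.4 CPM (10.2 to 19.9) and 12 CPM (9.28 to 15.3). Naive-like over effector-like T cells was 3.53 (3.33 to 3.73) and 3.86 (3.68 to 4.03). Its difference was larger in size than that of S1pr5 on this scale and smaller with a pseudocount of 1 CPM, where Lef1 gave 3.87 and 4.35 and S1pr5 −4.08 and −4.45. B-like cells were below naive-like T cells by −4.22 and −4.27, and their Tcf7 was lower by −4.42 and −4.22.

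Tcf7, the gene of TCF1, had its highest level in the developing cells. Resting and dividing Rag1-positive cells held 616 CPM (579 to 654) and 621 CPM (575 to 671), and the difference between them was 0.01 (−0.12 to 0.15), while Lef1 was lower in the dividing cells. Naive-like T cells held 221 CPM (202 to 240) and 218 CPM (206 to 232), which put resting Rag1-positive cells 1.45 (1.34 to 1.57) above them on the log2 scale in library 2. S1pr1 and Klf2 were called lower in the same comparison, Klf2 by −1.89 (−2.26 to −1.52). Under TMM scaling, which allows for the composition of each class, the Tcf7 difference was 0.92 and no longer 2-fold. The factors in library 2 were 1.31 for resting Rag1-positive and 0.899 for naive-like T cells. That scaling also put Lef1 lower in the resting Rag1-positive cells, so its near equality in these classes holds for plain CPM only. Effector-like T cells stood at 46.7 CPM (40.7 to 53.4) and 43.8 CPM (39.0 to 48.9), dividing T cells at 32.5 CPM (24.3 to 42.6) and 29.5 CPM (24.3 to 35.5), and B-like cells at 0.781 CPM and 2.22 CPM. Naive-like over effector-like T cells was 2.02 (1.82 to 2.22) and 2.09 (1.93 to 2.24).

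Natural killer-like cells, as classed here without the Klra22-led cells described below, held more Tcf7 than Lef1. Lef1 stood at 13.5 CPM (10.6 to 16.9) and 11.5 CPM (9.30 to 14.0) in that class. The Xcl1-led cells held 64.2 CPM (57.1 to 71.9) and 37.9 CPM (33.6 to 42.6) of Tcf7, and the Prf1-led cells 7.92 CPM (3.19 to 16.3) and 16.3 CPM (9.12 to 26.9). The Prf1-led cells were lower by −2.05 (−2.54 to −1.56) in library 1, past 2-fold, and by −0.86 (−1.34 to −0.39) in library 2. Low Tcf7 was not confined to them. At finer clustering a Ccl1-led cluster, with Xcl1 among its leading genes, held 24.0 CPM (13.4 to 39.6) and 15 CPM (11.4 to 19.4). These intervals overlapped those of the Prf1-led finer cluster, at 7.85 CPM (3.16 to 16.2) and 16.2 CPM (9.04 to 26.6). The Klri1-led cluster held 66.7 CPM and 47.8 CPM. A further cluster led by the Ly49 receptor gene Klra22, with 221 and 314 cells, carried 118 CPM (100 to 139) and 77.0 CPM (65.4 to 90.1) of Tcf7, 86.7 CPM (71.2 to 105) and 96.3 CPM (83.2 to 111) of Lef1 and 78.7 CPM (64.0 to 95.8) and 80.5 CPM (68.6 to 93.8) of S1pr1. It had no name under the marker rule and is not part of the natural killer-like class above. Its 10 measured T cell markers summed to 3520 CPM and 3425 CPM. They summed to 3973 CPM and 3946 CPM in naive-like T cells and to 728 CPM and 775 CPM in natural killer-like cells. Under other clusterings 97.4% to 99.8% of its cells were nonetheless classed as natural killer-like. Macrophage-like cells gave Tcf7 levels of 1.03 CPM (0.548 to 1.76) and 6.19 CPM (4.77 to 7.90), and neutrophil-like cells 1.2 CPM and 3.48 CPM. The library with the higher background was the one that holds the Rag1-positive cells, whose free RNA was not measured separately.

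**Figure D4:**
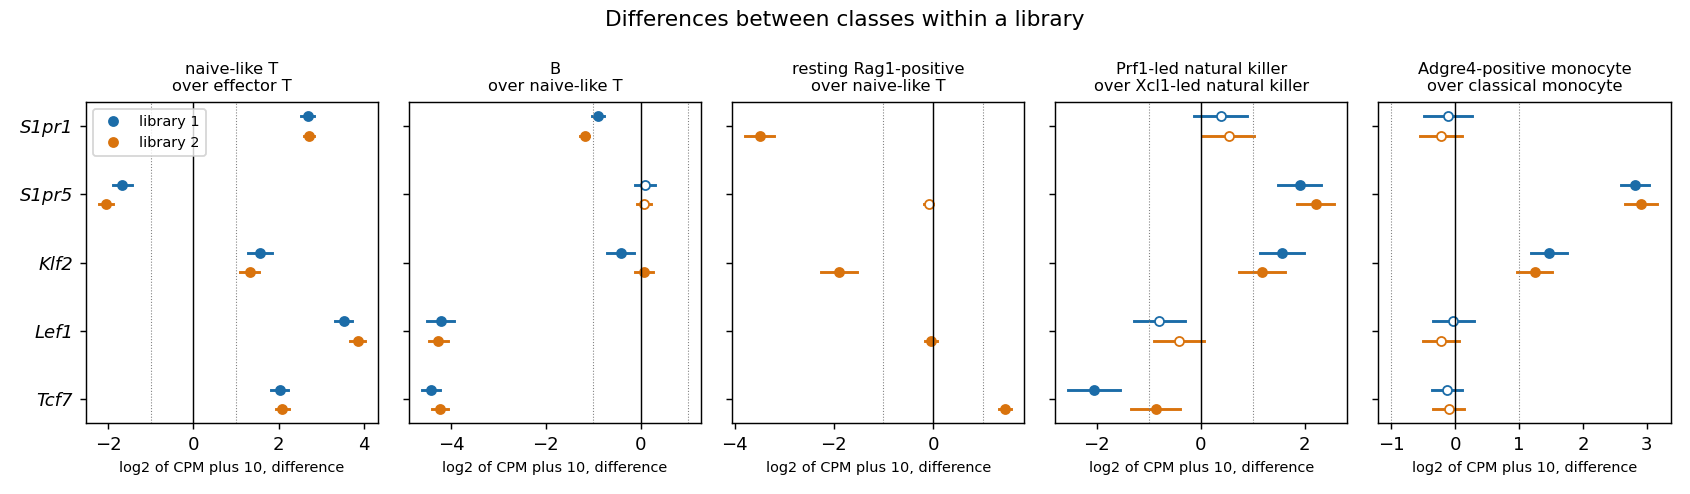
Difference in log2(CPM + 10) between classes within a library (horizontal axes) for each gene (vertical axis), with library 1 in blue, library 2 in orange and bars for the 95% counting interval. Open points are below 20 CPM in both classes, dotted lines mark 2-fold, and S1pr5 lies opposite to the other 4 genes in naive-like over effector-like T cells (−1.67 and −2.05).

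Dividing T cells were compared with naive-like and with effector-like T cells. Against naive-like cells, S1pr1 was lower by −2.69 and −2.71, Lef1 by −3.73 and −3.54, Tcf7 by −2.44 and −2.53 and Klf2 by −1.59 and −1.37, all called where 20.7% and 20.1% of genes were, 15.8% and 16% higher and 4.9% and 4.11% lower. Against effector-like cells none of the 4 genes above the minimum was called, and Klf2 was below it, where 8.68% and 7.39% of genes were, 7.63% and 6.86% higher and 1.05% and 0.532% lower. The nearest was S1pr5 in library 2, at −0.90 (−1.17 to −0.63), with Poisson intervals apart. With a pseudocount of 1 CPM it was −1.26, past 2-fold. Of dividing T cells, 53.8% and 69.0% were Cd8-only.

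The merged class of 520 and 468 T cells with Foxp3 and Il17a markers was compared with effector-like T cells after the clusters had been seen, and 3.91% and 3.84% of genes were called, 2.46% and 2.3% higher and 1.45% and 1.54% lower. S1pr5 was lower, by −1.52 (−1.79 to −1.25) and −1.81 (−2.08 to −1.54), and Lef1 was called higher in library 2, by 1.21 (0.95 to 1.47), and not in library 1, at 0.17 (−0.13 to 0.47). At finer clustering the class split into cells led by Il17a, the gene of a type 17 cytokine (174 and 157), cells led by Neb and Tnfrsf9 with Foxp3, the regulatory T cell factor, among the leading genes (66 and 100), and cells led by haemoglobin genes (290 and 214). Lef1 was at 30.1 CPM (20.7 to 42.3) and 64.1 CPM (48.5 to 83.0) in the Il17a-led cells, at 12.9 CPM (4.18 to 30.0) and 77.4 CPM (57.8 to 102) in the Foxp3 cells and at 43.4 CPM (32.1 to 57.4) and 32.9 CPM (21.7 to 47.8) in the haemoglobin-led cells. The first 2 kinds were higher in library 2 with intervals apart, and the third overlapped. S1pr1 was at 115 CPM (95.7 to 137) and 196 CPM (168 to 227) in the Il17a-led cells at 157 CPM (120 to 202) and 103 CPM (80.0 to 130) in the Foxp3 cells and at 90.4 CPM (73.7 to 110) and 65.8 CPM (49.4 to 85.8) in the haemoglobin-led cells.

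Finer clusters also differed within B-like cells. S1pr1 stood at 337 CPM (297 to 381) and 279 CPM (253 to 306) in a cluster of 266 and 526 cells led by Cd79b and Ms4a1, and at 228 CPM (207 to 252) and 193 CPM (180 to 208) in a larger cluster of 578 and 1309 cells. Klf2 did not separate them, at 41.8 CPM (28.6 to 59.1) and 72.0 CPM (59.3 to 86.6) against 52.3 CPM (42.2 to 64.1) and 59.6 CPM (52.1 to 67.9). Dividing T cells led by Cdkn3 and Cenpf, genes of mitosis, held more Lef1, at 35.8 CPM (23.0 to 53.3) and 34.6 CPM (27.2 to 43.5), than those led by histone genes, at 15.5 CPM (8.68 to 25.6) and 16.7 CPM (11.1 to 24.1). Those intervals were apart in library 2 and overlapped in library 1.

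Within naive-like T cells the 4 genes were found in the same cells about as often as in any others. Of the thinned cells, 19.1% in each library had no UMI of S1pr1, Klf2, Lef1 or Tcf7, 39.1% and 41.2% had UMIs of 1 of them, 31.8% and 30.7% of 2, and 9.16% and 8.41% of 3. S1pr1 had a UMI in 51.3% (44.6 to 58.1) and 49.7% (45.1 to 54.2) of cells with a Lef1 UMI, against 47.6% (41.4 to 53.7) and 48.3% (44.1 to 52.5) of those without. Tcf7 was found in 33.0% (26.9 to 39.6) and 28.6% (24.6 to 32.8) with Lef1 and 27.0% (21.7 to 32.7) and 26.1% (22.5 to 29.9) without. Cells with a UMI of Klf2 held S1pr1 in 55.8% (39.9 to 70.9) and 53.1% (41.7 to 64.3), against 48.7% and 48.6%. All these intervals overlapped, so no dependence between the genes was detectable at 1500 UMIs. A Cd69 UMI made no detectable difference to S1pr1 mRNA either, with 46.2% (32.2 to 60.5) and 48.0% (40.3 to 55.7) of cells against 49.7% and 49.1%. The same held in B-like cells, with 30.2% and 25.9% of cells with Cd69 against 30.7% and 24.5% of those without.

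Genes of the same pathways were described from lists in the naive-like over effector-like comparison. Several of them also served as markers that named the classes (among them Ccr7, Satb1, Foxp1 and Bach2 for naive-like, Tbx21, Prdm1 and Id2 for effector-like T cells), so their direction there was fixed by the naming. Of 16 genes of egress signalling and retention above the minimum, 2 were called higher and 6 lower in library 1, and 2 and 4 in library 2. Over all tested genes 3.2% and 2.9% were higher and 9.07% and 9.35% lower, the shares against which each list in this comparison is read. The list had a median of −0.66 and −0.56 against −0.12 and −0.13 over all tested genes. Ccr7, a homing receptor for lymph nodes, was among those called higher in both libraries. Cd69, the S1PR1 antagonist, was lower in naive-like cells, at 83.1 CPM and 136 CPM against 345 CPM and 544 CPM, a difference of −1.93 and −1.92. Cxcr4, a retention receptor, differed by 0.04 and −0.38 and was not called.

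Of the other sphingosine-1-phosphate receptors, S1pr4 was the 1 above the minimum in T cells, at 121 CPM and 114 CPM in naive-like and 203 CPM and 193 CPM in effector-like cells, a difference of −0.70 and −0.72 that was not called. Of 11 genes that make, export or break down the lipid, 2 and 1 were above the minimum in T cells. Sphk1, a sphingosine kinase gene, was called higher and Cers2, a ceramide synthase gene, lower in naive-like cells of library 1, and neither in library 2. In resting Rag1-positive cells S1pr2, a receptor that restrains migration in mouse B cells, was at 102 CPM against 0.797 CPM in naive-like T cells of library 2, a difference of 3.38 (3.16 to 3.60). Ccr7 was lower there, by −2.22, and Foxo1, a factor that drives Klf2 in mouse T cells, by −1.70.

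Of the FOXO and KLF quiescence factors other than Klf2, 4 of 17 were called higher and 1 lower in naive-like T cells of library 1, and 3 and 2 of 16 in library 2, where 3.2% and 2.9% of all tested genes were higher and 9.07% and 9.35% lower. The lower calls were thus close to the share over all genes. Satb1, Bach2, Foxp1 and Il7r of this list also named the naive-like class. The count of higher calls is therefore not independent of the naming, and it was not repeated without them. Satb1, a chromatin organiser, was at 394 CPM in both libraries against 73.8 CPM and 62.3 CPM, and Bach2, a repressor of effector genes, at 66.0 CPM and 51.2 CPM against 4.54 CPM and 1.69 CPM. Klf6, an immediate early relative of Klf2, went the other way, at 125 CPM in both libraries against 320 CPM and 323 CPM. Foxo1 differed by 0.32 and 0.35 and was not called. The median over that list was 0.21 and 0.24. Of 12 partners and targets of TCF1 and LEF1, 3 and 2 were called higher, against 3.2% and 2.9% of all tested genes, and none lower, with a median of 0.38 and 0.17. Id3, an inhibitor of E proteins, was at 108 CPM and 74.2 CPM against 15.4 CPM and 12.7 CPM, and Myb, a progenitor factor, at 35.5 CPM and 29.9 CPM against 5.19 CPM and 4.80 CPM. Axin2, a Wnt target, was called in library 1, with a difference of 1.05, and not in library 2, at 0.57.

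Of the 10 effector counterparts above the minimum, 8 and 7 were called lower in naive-like T cells and none higher. Over all tested genes 9.07% and 9.35% were lower, and the list had a median of −1.98 and −2.61. Tbx21, Eomes, Prdm1 and Id2 of this list also named the effector-like class. The count of lower calls is therefore not independent of the naming, and it was not repeated without them. Zeb2, a repressor that acts with T-bet in effector cells, was at 6.0 CPM and 2.39 CPM against 41.6 CPM and 67.5 CPM. Cx3cr1, the fractalkine receptor gene, was at 0.428 CPM and 0.797 CPM against 28.8 CPM and 40.5 CPM. In Prf1-led over Xcl1-led natural killer-like cells 4 of the 10 were called higher in each library, the same 4 genes Zeb2, Prdm1, Klrg1 and Cx3cr1, and 2 and 3 were called lower, where 2.44% and 2.39% of all tested genes were higher and 3.36% and 3.9% lower. Klrg1 is also a leading gene of the Prf1-led cells, and its direction comes with the split. Zeb2 stood at 184 CPM and 151 CPM in the Prf1-led cells against 7.37 CPM and 4.84 CPM. Tox, which promotes natural killer cell development, was lower, at 4.53 CPM and 4.35 CPM against 55.5 CPM and 59.0 CPM. Immediate early genes were lower in the Prf1-led cells in 3 of 12 and 4 of 13, against 3.36% and 3.9% of all tested genes, with Fosb at 316 CPM in both libraries against 773 CPM and 899 CPM. Their part in the Klf2 difference between these cells was not tested.

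In library 2 over library 1 none of the 5 genes was called in any class, where 0.219% of genes were called in naive-like T cells, 0.457% in effector-like T cells, 0.487% in natural killer-like cells, 0.305% in B-like cells and 0.762% in Adgre4-positive monocytes. In the other classes compared, 0.487% to 2.5% of genes were called. In naive-like T cells the differences in log2(CPM + 10) were 0.03 (−0.07 to 0.13) for S1pr1, −0.10 (−0.20 to 0.01) for Lef1, −0.01 (−0.16 to 0.13) for Tcf7 and −0.18 (−0.42 to 0.06) for Klf2. In Adgre4-positive monocytes they were 0.14 (−0.03 to 0.30) for S1pr5 and 0.02 (−0.24 to 0.28) for Klf2.

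Smaller differences left out 0 in other classes. Tcf7 was lower in natural killer-like cells of library 2, at 35.5 CPM (31.6 to 39.8) against 55.1 CPM (49.1 to 61.7), a difference of −0.52 (−0.70 to −0.33). The finer clusters also differed in size, but they do not divide that class exactly. The cluster led by Ccl1, with little Tcf7 (24.0 CPM and 15 CPM), held 130 cells in library 1 and 768 in library 2. Fcrl6 was among its leading genes, and an unnamed Fcrl6-led cluster of 13 and 212 cells was outside the natural killer-like class. The overlap between those clusters was not counted. Within the finer cluster led by Klri1 and Ncr1, Tcf7 was at 66.7 CPM (58.5 to 75.7) and 47.8 CPM (41.7 to 54.5), a difference of −0.41. Effector-like T cells had less Lef1 in library 2, by −0.43 (−0.67 to −0.19), and more S1pr5, by 0.40 (0.17 to 0.64). The granzyme-led finer cluster, which carries S1pr5, held 201 cells in library 1 and 447 in library 2. The other effector-like finer cluster held 733 and 911, and the finer clusters do not divide the class exactly. The part of cluster size in the S1pr5 difference was not tested. Within the granzyme-led cells S1pr5 was at 82.7 CPM and 78.9 CPM. In the other effector-like cells it was at 4.59 CPM (2.62 to 7.46) and 9.10 CPM (6.53 to 12.3), with intervals that overlapped. B-like cells had less S1pr1, by −0.25 (−0.38 to −0.12), and more Klf2, by 0.30 (0.06 to 0.55). In T cells with Foxp3 and Il17a markers, where 0.723% of genes were called, Lef1 differed by 0.62 (0.30 to 0.93). Among the finer clusters of that class, Lef1 was at 12.9 CPM and 77.4 CPM in the Foxp3 cells, past 2-fold with intervals apart. The library 1 value there rests on 5 UMIs in 66 cells. S1pr1 was at 115 CPM and 196 CPM in the Il17a-led cells.

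**Figure D5:**
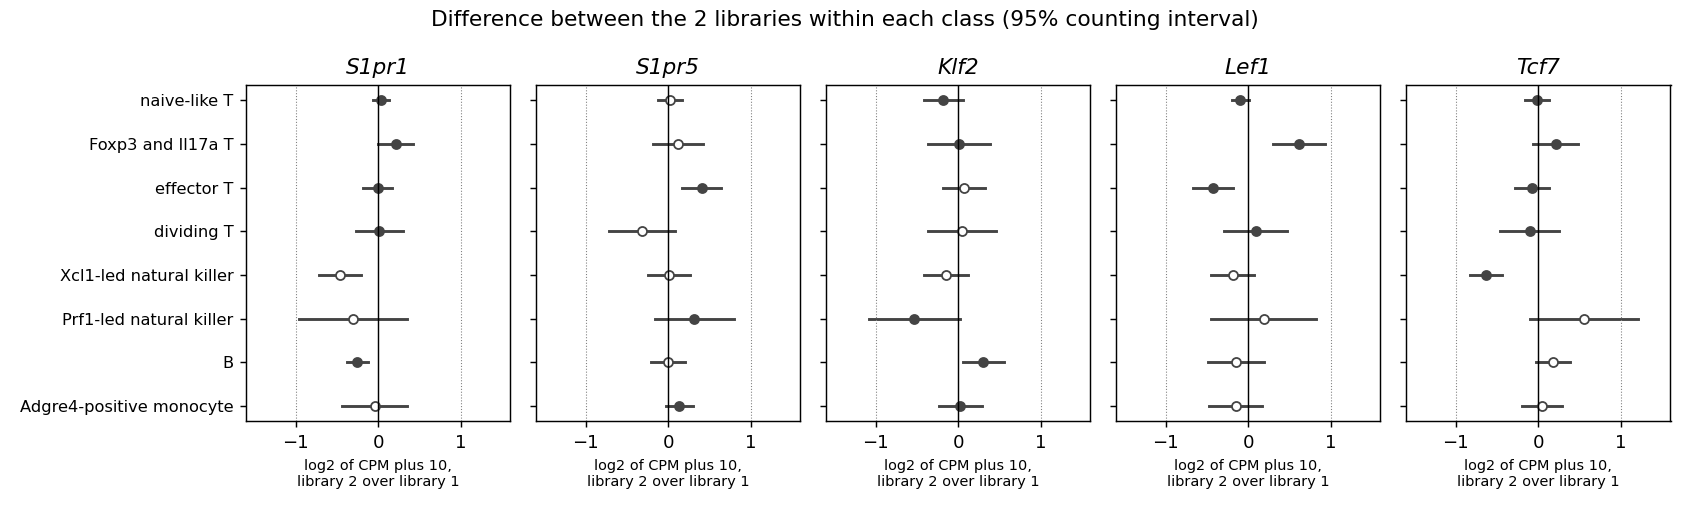
Difference in log2(CPM + 10) of library 2 over library 1 (horizontal axes) within 8 classes (vertical axis) for each gene, with bars for the 95% counting interval, open points below 20 CPM in both libraries and dotted lines at 2-fold. No filled point lies past 2-fold, and the Tcf7 difference in Xcl1-led natural killer-like cells (−0.63) is the largest of them in size.

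Across 23 sums of cells by class and library, the genes whose pattern was most like that of each gene were found by Pearson's r of log2(CPM + 10) among 5716 genes. These sums share 2 libraries and differ in depth, and r is a description. S1pr1 was most like Rap1gds1 (r = 0.878), Socs5 (r = 0.865) and Smyd2 (r = 0.860), all highest in naive-like T cells. S1pr5 was most like Acsl1 (r = 0.935), Rap1gap2 (r = 0.889) and Cab39 (r = 0.887), all highest in Adgre4-positive monocytes. Klf2 had the loosest neighbours, led by Rcan3 (r = 0.803), Jup (r = 0.758) and Arhgap17 (r = 0.754). Lef1 was most like Art4 (r = 0.940), Pde4d (r = 0.911) and Tcf7 itself (r = 0.905), and Tcf7 most like St8sia1 (r = 0.953), Arpp21 (r = 0.949) and Alkbh4 (r = 0.934), which were highest in resting Rag1-positive cells. Among the 5 genes, S1pr1 had r = 0.550 with Lef1, 0.511 with Klf2 and 0.328 with Tcf7, and S1pr5 had r = −0.396 with S1pr1 and 0.208 with Klf2.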

How the data were processed

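The authors deposited 1 matrix of UMI counts for both samples, produced by Cell Ranger 4.0.0 per the file headers; its genome build is not given in the sources used here. Symbols on several lines were summed. Cells needed 200 genes or more and 20% or less of mitochondrial UMIs (315 and 235 were left out), and the 634 and 997 doublets that Scrublet called, for an expected 8%, were also left out. A deposited table of 33756 other barcodes, 111 of them shared with the matrix, was not used.

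Cells were scaled to 10000 counts and clustered with scanpy 1.11.5 and leidenalg 0.10.2 (2000 variable genes without the 5 genes, 30 components, 15 neighbours, resolution 1; finer clusters at resolution 2). Each cluster was named for the marker list with most genes at 2-fold and 20 CPM or more, provided that over 50% and at least 3 passed and the next list had under 0.75 times as many; this rule was set after the clusters were seen. The genes and lists were chosen with earlier results of these data known. Named genes are list members past 2-fold, up to 4 a list by level, and the top-ranked genes for likeness; other genes and the splits within classes were chosen after their values were seen.

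CPM comes from summed counts, with exact 95% Poisson intervals, and differences are log2 of CPM plus 10. The call rule was checked on simulated counts. Alternatives were TMM scaling (edgeR 4.0.16), a pseudocount of 1 CPM, other clusterings, doublets kept and thinning. Python 3.11.15 was used.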

Additional observations from a re-analysis of the deposited data

How the results depend on the processing

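No paired analysis was possible because the labels give 1 sample to each group. Of 49 differences between classes and 18 between libraries, 284 alternative values belong to ones whose interval left out 0, and 2 of these changed sign, both with the 5 genes among the clustering genes: Lef1 in natural killer-like over effector-like T cells of library 1, 0.0266 in place of −0.75, and Tcf7 in library 2, 0.00508 in place of −0.24. In that clustering 97.4% of the Klra22-led cells were natural killer-like. The naive-like over effector-like differences kept their sign and stayed past 2-fold. With a pseudocount of 1 CPM they were, in libraries 1 and 2, −4.08 and −4.45 for S1pr5, 1.99 and 1.68 for Klf2, 3.87 and 4.35 for Lef1, 2.87 for S1pr1 and 2.29 for Tcf7 in library 2. In cells thinned to 1500 UMIs they were 2.97 for S1pr1 in library 1, 3.81 and 4.05 for Lef1 and 1.07 for Klf2 in library 2. S1pr5 in Adgre4-positive over classical monocyte-like cells was 3.25 and 3.35 with a pseudocount of 1 CPM, and 3.67 in library 2 at Leiden resolution 2. Between libraries in naive-like T cells, TMM scaling gave 0.16 for S1pr1 and 0.0282 for Lef1; it moved class differences by −0.53 to 0.09. Tcf7 in natural killer-like cells was −0.77 in thinned cells and −0.31 with clusters weighted alike, and Klf2 in Adgre4-positive monocytes −0.32 in thinned cells. The causes were not tested. TMM scaling took S1pr1 in B-like over naive-like T cells of library 1 to −1.10. Leaving out barcodes shared by both libraries, an alternative added after the data were seen, moved differences by −0.04 to 0.02. A limit of 10% mitochondrial UMIs moved none of 37 levels past its interval. Without thinning, 37 of 39 shares were higher by more than their interval, so shares hold for 1500 UMIs only.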
